A study of Homo sapiens with 4 samples.

Results

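The G1/S and DNA replication genes are 29 named genes that act in the step from G1 into S phase or at the replication fork, out of 18673 genes with a value on the array. They were taken by name from a list, and the value of each gene is the mean over the array's probesets (small groups of probes within an exon) that the platform annotation gives to that gene alone. All 29 were measured, on 406 probesets, from 3 for FEN1 to 37 for POLA1. By role, 12 belong to origin licensing and the replicative helicase, 6 to the clamp, the polymerases and flap removal, 3 to deoxynucleotide supply, 4 are cyclin E and E2F genes, and 4 serve chromatin in S phase.

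RNA came from embryoid bodies, floating aggregates in which embryonic stem cells begin to form the germ layers, made from BG01V, an established line of human embryonic stem cells whose karyotype is variant. They were treated for 48 h, in most cases between days 2 and 4 of formation, with the vehicle DMSO or with 10 µM TBBD (ellagic acid), which the series title calls an inhibitor of histone H3 arginine 17 methylation. There were 2 arrays for each treatment, numbered 1 and 2 in the labels, so the arrays are DMSO 1, DMSO 2, TBBD 1 and TBBD 2. All 4 rest on 1 cell line and on whole aggregates of mixed cells, and the labels do not say whether the numbers stand for separate cultures, so a p-value here covers the spread among these 4 arrays, which may be technical.

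Before S phase the origin recognition complex, CDC6 and CDT1 load the hexamer of MCM2 to MCM7 on DNA, and CDC45 and the GINS complex then turn it into an active helicase. Cyclin E with its kinase releases E2F factors from RB proteins, and E2F drives transcription of most of the licensing, fork and nucleotide genes. Pluripotent stem cells have a short G1 and spend much of their cycle in S phase, and the cycle lengthens as they differentiate.

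Sequences are shown for 3 members, because CDC6 had the lowest and CCNE1 the highest value on the replicate 2 arrays relative to the replicate 1 arrays, and E2F1 encodes the factor whose binding letters were searched. They come from RefSeq (build GRCh38.p14), run 5′ to 3′ on the gene's strand from 150 bases before to 15 bases after the transcription start, and capitals mark the letters found. CDC6 lies on the plus strand at chr17:40287729-40287893, CCNE1 on the plus strand at chr19:29811841-29812005 and E2F1 on the minus strand at chr20:33686371-33686535.
CDC6: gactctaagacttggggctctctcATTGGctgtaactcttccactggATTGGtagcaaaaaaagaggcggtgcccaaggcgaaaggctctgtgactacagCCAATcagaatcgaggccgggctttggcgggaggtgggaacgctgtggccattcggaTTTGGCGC
CCNE1: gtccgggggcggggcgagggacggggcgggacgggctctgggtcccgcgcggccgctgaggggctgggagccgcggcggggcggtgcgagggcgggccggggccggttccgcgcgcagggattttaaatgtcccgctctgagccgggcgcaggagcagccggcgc
E2F1: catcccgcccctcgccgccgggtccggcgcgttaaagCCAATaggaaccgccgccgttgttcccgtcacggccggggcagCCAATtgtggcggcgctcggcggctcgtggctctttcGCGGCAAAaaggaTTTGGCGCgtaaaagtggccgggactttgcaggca
The letters searched on both strands were TTTCCCGC, TTTCGCGC, TTTGCCGC and TTTGGCGC for E2F, and CCAAT for the CCAAT box, which NF-Y binds. A word can share bases with its partner on the other strand, and the C that ends an E2F word can begin CCAAT. In its window CDC6 held 1 E2F word and 3 CCAAT boxes, E2F1 held 2 of each, and CCNE1 held 0 of either.

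The promoter table held 25 members, and MCM4, MCM5, POLD3 and CCNE2 were not in it. Over the 250 bases before and 50 bases after the start, 15 of 25 members (60.0%) held an E2F word, against 4.52% of 14543 promoters of measured genes. CCAAT was found in 15 of 25 members (60.0%) and in 36.5% of those promoters. The members with an E2F word had a median replicate 2 minus replicate 1 difference of -0.16 on the log2 scale, with 13 of 15 lower, and the 10 without had -0.24, with 9 lower. The difference between these 2 sets of members was not tested, and the matches describe letters only.

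Median log2 signals of all probesets lay between 6.38 and 6.42 on the 4 arrays. Markers of undifferentiated cells were present, POU5F1 standing at 7.75 and 7.20 on DMSO 1 and DMSO 2 and at 7.73 and 6.60 on TBBD 1 and TBBD 2. As a guide to background, 371 olfactory receptor genes had a median of 5.40 and a 95th percentile of 5.66, and on every array 28 of the 29 members stood above that percentile. The exception was E2F2, which lay below it on both DMSO arrays, at 5.65 on DMSO 1 and 5.60 on DMSO 2.

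Most replication genes had their highest signal on the same array, DMSO 1. It was the highest of the 4 arrays for 24 of 29 members, where the share over all genes was 29.2%, and the exceptions were CDT1, POLD3, TYMS, CCNE1 and E2F2. The lowest array was DMSO 2 for 16 members, TBBD 2 for 6, TBBD 1 for 5 and DMSO 1 for 2. The members' mean log2 signal was 7.69 on DMSO 1, against 7.39 on DMSO 2, 7.47 on TBBD 1 and 7.45 on TBBD 2. Among the members' single probesets, which share their RNA and are not replicates, 61.3% were highest on DMSO 1, against 26.4% of all probesets. Each comparison below that uses DMSO 1 therefore carries the high level of that array, and TBBD 1 against DMSO 1 and DMSO 2 against DMSO 1 share it.

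**Figure D1:**
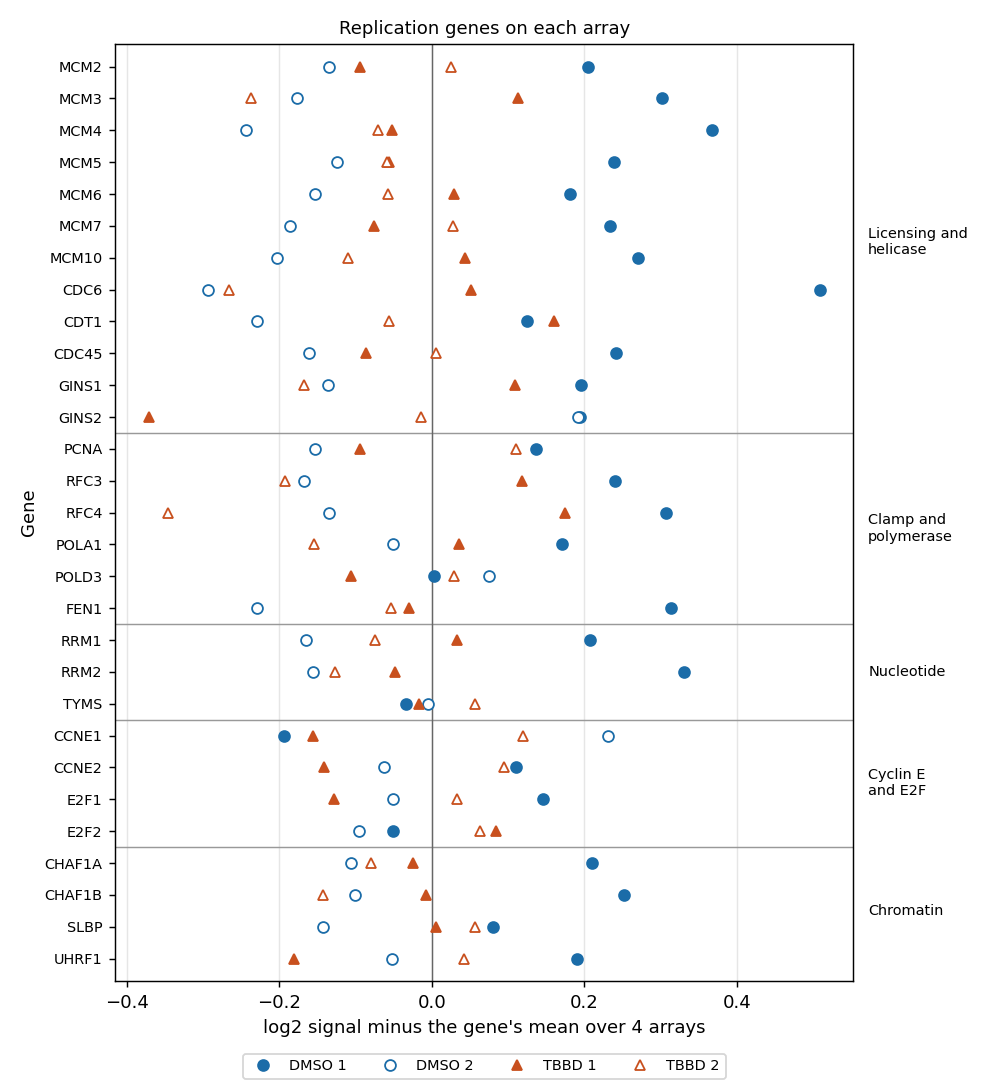
Log2 signal of each of the 29 genes on the 4 arrays, minus that gene's own mean over the arrays; circles are DMSO, triangles TBBD, filled marks replicate 1 and open marks replicate 2, with 1 mark per array. DMSO 1 is the rightmost mark for 24 genes, and for CCNE1 and TYMS it is the leftmost.

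Between TBBD and DMSO, 0 of 29 members passed the test, as did 0% of all genes (limma's moderated test with Benjamini-Hochberg adjustment over 18673 genes, smallest adjusted p = 1). At an unadjusted p under 0.05 there were 0 of 29 members and 140 of 18673 genes. This fit has treatment as its only term, so differences between the replicate numbers count as error. With the number as a second term 0 genes passed in limma. An unadjusted p under 0.05 was then reached in limma by 496 of 18673 genes and by 1 of 29 members, GINS2, shares of a like size. The median log2 difference of the members was -0.078, with 24 lower and 5 higher with TBBD, beside a median of -0.0033 over all genes. Both TBBD arrays lay below both DMSO arrays for 1 member, GINS2, and above them for 1, E2F2, or 3.45% in each direction, where all genes gave 10.4% and 10.5%. For nearly all members, then, the treatments overlapped.

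The difference within each replicate number had opposite signs. TBBD 1 was lower than DMSO 1 for 25 of 29 members, at a median of -0.23, where 54.7% of all genes were lower. TBBD 2 was higher than DMSO 2 for 20 of 29, at a median of 0.084, where 53.2% of all genes were higher. Both held at once for 17 members, or 58.6%, beside 31.7% of all genes. Another 8 members were lower with TBBD in both numbers (MCM3, GINS1, GINS2, RFC3, RFC4, POLA1, POLD3 and CHAF1B) and 3 were higher in both (CDT1, TYMS and E2F2), and CCNE1 was higher in number 1 and lower in number 2. Over all genes 23.0% were lower with TBBD in both numbers, near the members' 27.6%. Which members these were depended on how probesets were summarised. With the median over probesets 17 members were again lower in number 1 and higher in number 2. Of the 8 lower in both numbers only MCM3 and POLA1 stayed so, and of the 3 higher in both only CDT1. That median was taken from the signals on each array and can differ in sign from most probesets. RFC4 left the 8 though TBBD was lower on 12 of its 13 probesets in each number. With 1 array of each treatment in a number, the difference between the numbers could not be tested.

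The direction of the members' median with TBBD changed when DMSO 1 was left out. Without that array the members' median was 0.11, with 24 higher and 5 lower, and without DMSO 2 it was -0.26, with 26 lower. These fits have treatment as their only term and leave the numbers unequal between treatments, so the difference between the numbers enters them. MCM3, lower with TBBD in both numbers, stood at 0.12 without DMSO 1. In the fit to all 4 arrays the half-width of a member's 95% confidence interval ran from 0.28 for E2F2 to 0.76 for CDC6. Its median was 0.42. The members' median SE was 0.16 in that fit and 0.13 with the number as a second term.

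**Figure D2:**
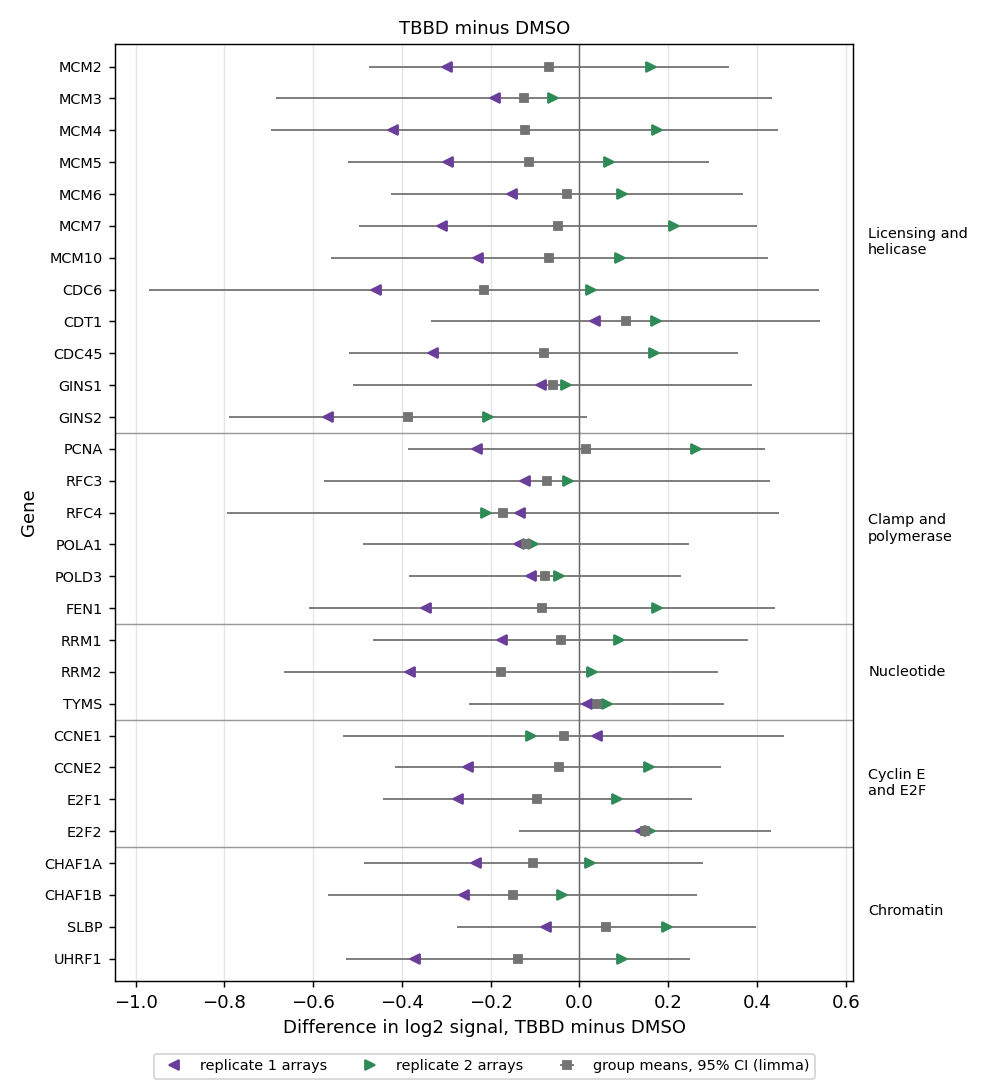
Difference in log2 signal, TBBD minus DMSO, for each gene; purple marks are the replicate 1 arrays, green marks the replicate 2 arrays, and grey squares the group means with limma's 95% confidence interval (2 arrays per group). Every interval, from the fit with treatment as its only term, spans 0. The purple mark lies left of 0 for 25 genes while the green mark lies right of it for 20.

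Between the replicate numbers the members lay lower on replicate 2, with a median log2 difference of -0.19, 24 lower and 5 higher, beside a median of -0.0024 over all genes. In limma with treatment in the fit 0 of 29 members passed the adjusted threshold, while 3.56% of all genes did (230 lower and 434 higher on replicate 2). At an unadjusted p under 0.05 the members counted 7 lower (24.1%), where 9.1% of all genes were lower at that level, and 1 higher, CCNE1. Both replicate 2 arrays lay below both replicate 1 arrays for 16 members (55.2%), beside 25.9% of all genes, and above them for 3 (10.3%), beside 25.0%. The arrays of the 2 numbers thus did not overlap for 19 members, but the differences did not pass adjustment. For some the gap was slight, as TBBD 2 minus TBBD 1 was -0.002 for MCM5 and -0.018 for MCM4.

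The difference between the numbers was larger with DMSO than with TBBD. DMSO 2 minus DMSO 1 had a median of -0.34 over the members, with 26 of 29 lower, and TBBD 2 minus TBBD 1 had a median of -0.022, with 17 lower and 12 higher. Over all genes the medians were -0.021 and 0.017. The difference between these medians was not tested, since each rests on 1 array a number. Without DMSO 1 the members' median between the numbers was -0.092, with 19 lower, and without TBBD 1 it was -0.30, with 25 lower. These fits have the number as their only term.

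**Figure D3:**
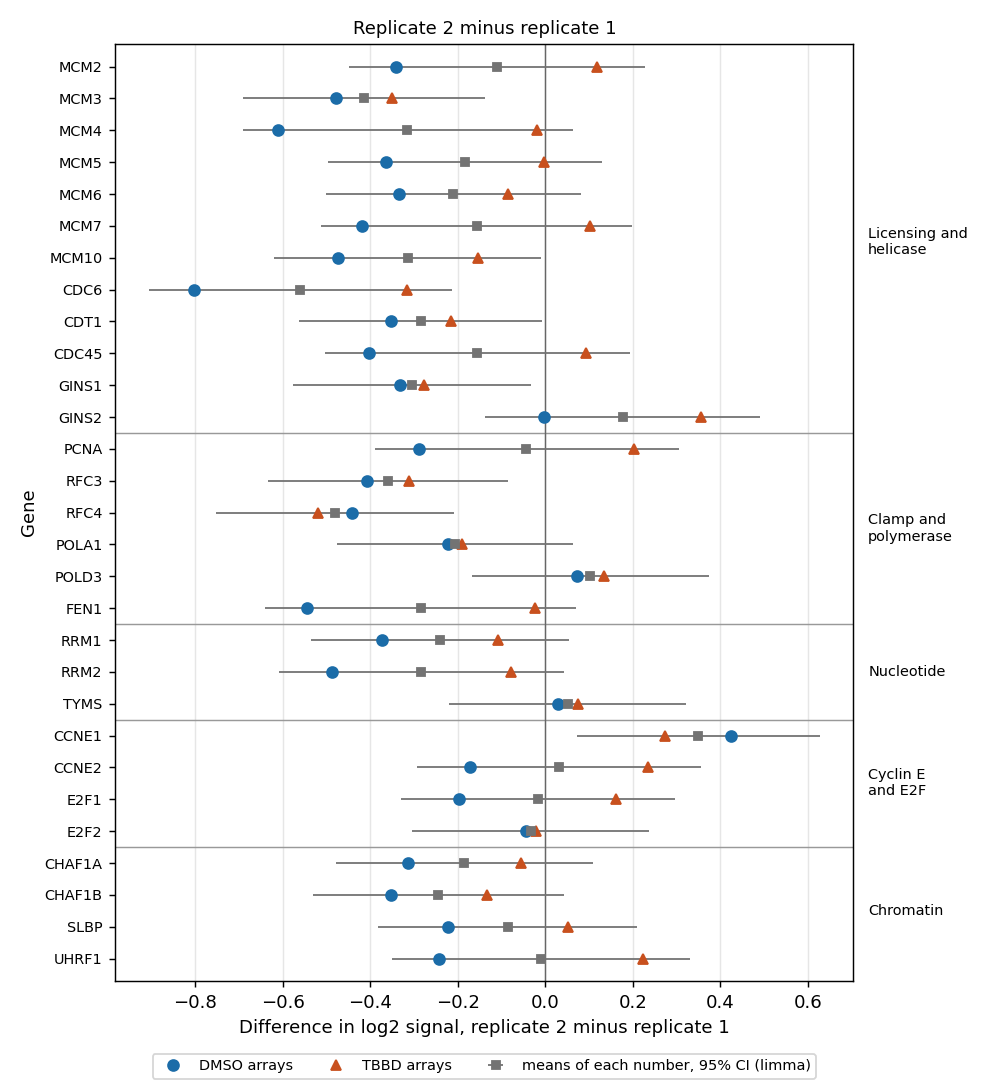
Difference in log2 signal, replicate 2 minus replicate 1, for each gene; circles are the DMSO arrays, triangles the TBBD arrays, and grey squares the means of each number with limma's 95% confidence interval (2 arrays per number). The circle lies left of the triangle for most genes, RFC4 and CCNE1 being exceptions, and CDC6 has the lowest square at -0.56.

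Among the licensing factors, CDC6, the ATPase that brings the MCM hexamer to origins, varied most. Its log2 signal was 8.55 for DMSO 1 and 7.75 for DMSO 2, and 8.10 for TBBD 1 and 7.78 for TBBD 2. The DMSO 1 array stood far above the others, 1.74-fold over DMSO 2, and both replicate 2 arrays were the lowest. Between the numbers CDC6 differed by -0.56 ± 0.15 (SE), a 1.47-fold lower level on replicate 2, and did not pass the test (limma adjusted p = 0.0951). That p ran from 0.0309, without TBBD 1, to 0.232 over the fit and its 13 alternatives. TBBD minus DMSO was -0.46 in number 1 and 0.027 in number 2 (limma -0.22 ± 0.29, adjusted p = 1). CDT1, which loads the hexamer together with CDC6, stood at 6.62 and 6.27 on DMSO 1 and DMSO 2 and at 6.65 and 6.44 on TBBD 1 and TBBD 2. It was lower on both replicate 2 arrays, by -0.28 ± 0.12 (limma adjusted p = 0.262), and was 1 of 3 members higher with TBBD in each number, by 0.035 and 0.17.

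The MCM hexamer, the ring that unwinds DNA, showed 1 pattern in all 6 subunits, with DMSO 1 the highest array. MCM2 stood at 7.21 on DMSO 1 and 6.87 on DMSO 2, with 6.91 on TBBD 1 and 7.03 on TBBD 2. MCM4 stood at 8.80, 8.19, 8.38 and 8.36 in the same order, and all 17 of its probesets were highest on DMSO 1. MCM7 stood at 8.51, 8.09, 8.20 and 8.30. In these 3 subunits, and in MCM5 and MCM6, DMSO 1 was the highest and DMSO 2 the lowest array, while in MCM3 TBBD 2 was the lowest. MCM5 stood at 7.96, 7.59, 7.66 and 7.66, MCM6 at 7.86, 7.53, 7.71 and 7.62, and MCM3 at 8.83, 8.35, 8.64 and 8.29. Both replicate 1 arrays lay above both replicate 2 arrays for MCM3, MCM4, MCM5 and MCM6. The widest gap was in MCM3, at -0.41 ± 0.12 between the numbers (SE, limma adjusted p = 0.116). In MCM4 and MCM5 the TBBD arrays were nearly level, TBBD 2 minus TBBD 1 being -0.018 and -0.002. Against DMSO 1, TBBD 1 was lower in all 6 subunits, from -0.42 for MCM4 to -0.15 for MCM6. In number 2, TBBD was higher in 5 of them, from 0.066 for MCM5 to 0.21 for MCM7, and lower in MCM3 at -0.060. With the median over probesets MCM5 turned to -0.14 in number 2.

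The factors that activate the hexamer divided. MCM10, needed to start unwinding, stood at 7.48 on DMSO 1 and 7.00 on DMSO 2, with 7.25 on TBBD 1 and 7.10 on TBBD 2. CDC45, a helicase subunit, stood at 7.22, 6.82, 6.89 and 6.98. GINS1 stood at 8.07, 7.73, 7.98 and 7.70. All 3 were highest on DMSO 1, MCM10 and GINS1 with both replicate 2 arrays lowest and CDC45 with the 3 other arrays close together. GINS2, which with GINS1 belongs to the 4-subunit GINS complex, behaved differently. Its signal was 7.73 for DMSO 1 and 7.72 for DMSO 2, and 7.16 for TBBD 1 and 7.52 for TBBD 2, so the DMSO arrays were level and both TBBD arrays were lower. Its difference with TBBD, -0.39 ± 0.16, was the largest of the members, a 1.31-fold lower level. In limma its unadjusted p was 0.0574 and its adjusted p 1. With the number as a second term in limma the unadjusted p was 0.0227, and no gene passed adjustment. The difference was -0.57 in number 1 and -0.21 in number 2, it lay between -0.56 and -0.21 with 1 array left out. The value rests on 5 probesets. With their median signal in place of the mean it was -0.47, at -1.06 in number 1 and 0.12 in number 2. That median was the signal of the same probeset on all 4 arrays. TBBD 2 was lower than DMSO 2 on 3 of the 5 probesets, so the direction in number 2 depended on the probeset.

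At the fork, the clamp loader subunits RFC3 and RFC4, which place the PCNA ring on DNA, were ordered by replicate number in both treatments. RFC4 stood at 8.50 on DMSO 1 and 8.06 on DMSO 2, with 8.37 on TBBD 1 and 7.85 on TBBD 2, and all 13 of its probesets were lower on replicate 2. It differed by -0.48 ± 0.12 (SE) between the numbers, the smallest p among the members (limma adjusted p = 0.0790, between 0.0526 and 0.311 over the fit and its 13 alternatives). RFC3 stood at 8.27, 7.86, 8.15 and 7.84 in the same order of arrays, at -0.36 ± 0.12 (limma adjusted p = 0.162). TBBD 1 minus DMSO 1 was -0.12 for RFC3 and -0.13 for RFC4. With the median over probesets, taken from the signals on each array, it was -0.30 and 0.15. The sign thus changed for RFC4, though TBBD 1 was lower than DMSO 1 on 12 of its 13 probesets.

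POLA1, the catalytic subunit of the primase-polymerase, stood at 8.09 on DMSO 1 and 7.87 on DMSO 2, with 7.95 on TBBD 1 and 7.76 on TBBD 2. It was lower on replicate 2 on 31 of 37 probesets, and TBBD was lower by like amounts in both numbers, -0.14 and -0.10. FEN1, the nuclease that trims Okazaki fragments, stood at 7.24, 6.70, 6.90 and 6.87, again with DMSO 1 alone at the top. PCNA, the sliding clamp, stood at 7.35, 7.06, 7.12 and 7.32. Its replicate numbers overlapped, and TBBD was lower by -0.23 in number 1 and higher by 0.26 in number 2, which was the highest value of any member in number 2. POLD3, an accessory subunit of polymerase delta, stood at 7.29, 7.36, 7.18 and 7.31, within a range of 0.18 over the 4 arrays and slightly higher on replicate 2 (0.10 ± 0.12, limma adjusted p = 0.724).

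Of the nucleotide genes, the subunits of ribonucleotide reductase, which makes deoxynucleotides, followed the MCM pattern. RRM1, the large subunit, stood at 8.81 on DMSO 1 and 8.44 on DMSO 2, with 8.63 on TBBD 1 and 8.53 on TBBD 2, and 17 of its 18 probesets were lower on replicate 2. RRM2, the small subunit that is made in S phase, stood at 7.36, 6.88, 6.98 and 6.91. Both had replicate 2 below replicate 1, at -0.24 ± 0.13 for RRM1 and -0.28 ± 0.14 for RRM2 (limma adjusted p = 0.378 and 0.347). TYMS, which makes thymidylate, stood at 8.51, 8.53, 8.52 and 8.60. Its range of 0.090 was the smallest of all members, so DMSO 1 was not high for this gene.

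Of the 4 cyclin E and E2F genes 2 were lower and 2 higher on replicate 2, with a median of 0.0071 between the numbers, and DMSO 2 was below DMSO 1 for 3 of them. The difference from the other roles was not tested. CCNE1, cyclin E1, had the highest difference between the numbers of the 29 members. It stood at 7.26 on DMSO 1 and 7.68 on DMSO 2, with 7.30 on TBBD 1 and 7.57 on TBBD 2. Both replicate 2 arrays were above both replicate 1 arrays, by 0.35 ± 0.12 (SE), a 1.27-fold higher level, which did not pass the test (limma adjusted p = 0.178). CCNE2, cyclin E2, stood at 6.36, 6.19, 6.11 and 6.34. E2F1, an activating E2F, stood at 6.99, 6.79, 6.71 and 6.88. In both of these TBBD was lower in number 1, at -0.25 and -0.27, and higher in number 2, at 0.16 and 0.084, and the groups overlapped. E2F2, near background, stood at 5.65, 5.60, 5.78 and 5.76 and was the only member with both TBBD arrays above both DMSO arrays, by 0.15 ± 0.11 (limma adjusted p = 1). With the median over its 10 probesets that difference was 0.050, at 0.23 in number 1 and -0.13 in number 2. Both DMSO arrays of E2F2 lay below 5.66, the 95th percentile of the olfactory receptor genes.

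Among the chromatin genes, CHAF1A and CHAF1B, subunits of the chromatin assembly factor that deposits histones behind the fork, had like values. CHAF1A stood at 7.37 on DMSO 1 and 7.06 on DMSO 2, with 7.14 on TBBD 1 and 7.08 on TBBD 2, and CHAF1B at 7.35, 7.00, 7.10 and 6.96. In both, DMSO 1 stood above 3 arrays that lay close together. UHRF1, which guides maintenance methylation of new DNA, stood at 8.03, 7.78, 7.66 and 7.88, and SLBP, which binds the end of histone mRNAs, at 7.69, 7.47, 7.62 and 7.67. For these 2 the numbers overlapped, and TBBD was higher than DMSO in number 2 by 0.096 and 0.20.

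Other genes of the pathway, 90 measured of 92 listed, lay lower on replicate 2 to a like extent, with a median of -0.19 and 69 lower. Of them 0 passed lower and 2 passed higher in limma, where 3.56% of all genes passed, counting both directions. Other licensing genes had a median of -0.26, 15 of 16 being lower, led by ORC2 at -0.48 ± 0.12 (SE) and WDHD1, a replisome scaffold, at -0.47 ± 0.12 (limma adjusted p = 0.079 and 0.0872). Other fork genes had a median of -0.21, 17 of 22 being lower, with the largest differences in DSCC1, of an alternative clamp loader, at -0.49 ± 0.12 and the primase gene PRIM1 at -0.44 ± 0.12 (limma adjusted p = 0.0748 and 0.0947). Other nucleotide genes had -0.24, 11 of 12 being lower, among them CTPS1, for CTP synthesis, at -0.35 ± 0.13 and GART, for purine synthesis, at -0.34 ± 0.12 (limma adjusted p = 0.222 and 0.208). Other chromatin genes had -0.17, 8 of 11 being lower, with the helicase gene HELLS at -0.54 ± 0.14 and the histone chaperone gene ASF1A at -0.50 ± 0.12 (limma adjusted p = 0.0912 and 0.0715).

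The genes that regulate the entry into S phase were less uniform. Other E2F, RB and cyclin genes had a median of -0.088, with 13 of 21 lower. CCND2, cyclin D2, rose on replicate 2 by 0.79 ± 0.13 (SE, limma adjusted p = 0.0239), while CCND1, cyclin D1, stood at -0.46 ± 0.13 (limma adjusted p = 0.115). Of the inhibitors of cyclin-dependent kinases 5 of 8 were lower, at a median of -0.14. CDKN1C, which encodes p57, rose on replicate 2 by 0.69 ± 0.14 (limma adjusted p = 0.0434), and CDKN3, a phosphatase gene, stood at -0.42 ± 0.12 (limma adjusted p = 0.126). With TBBD 0 of the 90 passed in limma and 2 had an unadjusted p under 0.05, the median was -0.081, and 73 were lower. They were lower with TBBD in both numbers for 47 of 90, or 52.2%, where the share was 27.6% of the members and 23.0% of all genes. The difference between these shares was not tested.

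Genes of G2/M and mitosis lay lower on replicate 2 in 27 of 27, with a median of -0.36. Only 1 of them passed, where 3.56% of all genes did. It was CENPE, the kinetochore motor, at -0.69 ± 0.12 (SE, limma adjusted p = 0.0314). CDC20, an activator of the anaphase ubiquitin ligase, stood at -0.57 ± 0.16 (limma adjusted p = 0.111). Their TBBD minus DMSO medians were -0.12 in number 1 and -0.11 in number 2.

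Markers of cell types also differed between the numbers, and those that passed the adjusted threshold in limma are counted here. The lists were chosen with earlier results of these data known, so the counts are descriptions. Of 18673 genes 230 passed lower and 434 higher on replicate 2. Of 13 measured pluripotency markers 5 fell and 1 rose on replicate 2, and the mean log2 signal of the list was 7.86 and 7.64 on DMSO 1 and TBBD 1 and 7.57 and 7.30 on DMSO 2 and TBBD 2. POU5F1 fell by 0.84 ± 0.16 (SE), while SOX2, shared with neural cells, rose by 1.29 ± 0.12 (limma adjusted p = 0.0396 and 0.00331), and NANOG stood at -0.096 ± 0.13 (limma adjusted p = 0.776). Of 14 visceral endoderm and fetal liver markers 9 rose, with list means of 5.48 and 5.63 on the replicate 1 arrays and 6.72 and 6.94 on the replicate 2 arrays, and AFP, at 5.50 and 5.85 on DMSO 1 and TBBD 1 reached 7.98 and 8.22 on DMSO 2 and TBBD 2. Mesenchyme markers rose in 13 of 15, with list means of 8.06 and 8.13 on replicate 1 and 9.26 and 9.42 on replicate 2, and DCN, for decorin, by 3.21 ± 0.20 (limma adjusted p = 0.000914). Endothelial markers rose in 6 of 9, PECAM1 by 2.05 (limma adjusted p = 0.00234), with list means of 6.05 and 6.04 on replicate 1 and 6.73 and 7.00 on replicate 2. Of 9 neural markers 1, STMN2, rose, by 0.92 (limma adjusted p = 0.0221), with list means of 6.08 and 6.11 and of 6.16 and 6.32. The part of cell makeup in the replication values was not tested, and in whole aggregates fewer cells of a type and less RNA per cell cannot be told apart. From DMSO 1 to TBBD 1 the members' mean went from 7.69 to 7.47 and that of the pluripotency markers from 7.86 to 7.64, while the mesenchyme mean went from 8.06 to 8.13 and the visceral endoderm mean from 5.48 to 5.63. From DMSO 2 to TBBD 2 the members' mean went from 7.39 to 7.45 and the pluripotency mean from 7.57 to 7.30. The mesenchyme mean went from 9.26 to 9.42 there and the visceral endoderm mean from 6.72 to 6.94.

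**Figure D4:**
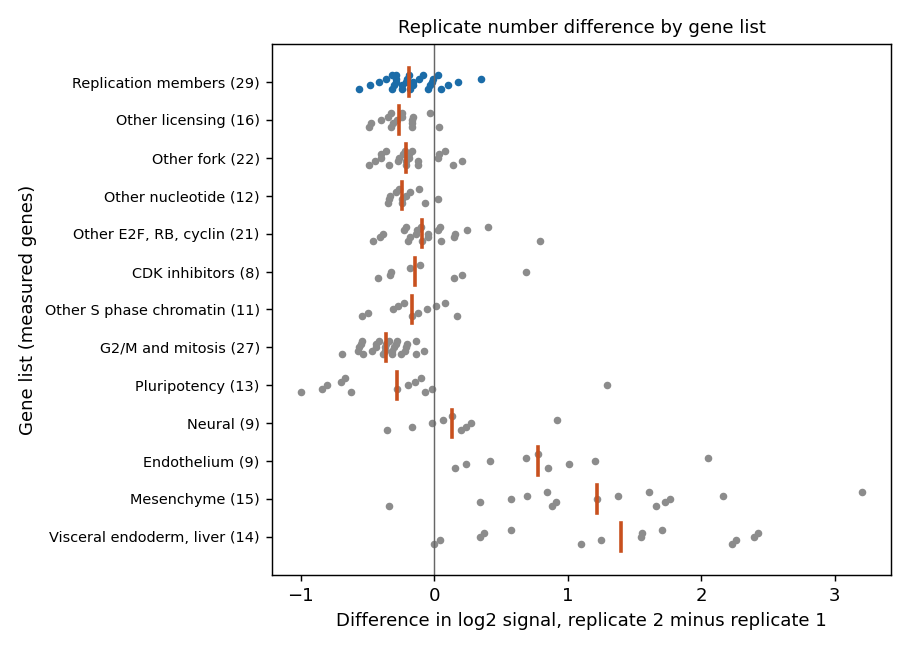
Difference in log2 signal, replicate 2 minus replicate 1, for each measured gene of the lists; points are genes (members in blue), orange bars the list medians, and the number of measured genes is in brackets. The replication and mitosis lists lie mostly left of 0, and the endothelial, mesenchymal and visceral endoderm lists to the right, at medians of 0.78, 1.22 and 1.40.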

How the data were processed

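RNA from 4 embryoid body samples was measured on 1-colour Affymetrix Human Gene 1.0 ST arrays. Per the submitters' processing notes the authors used RMA, with no version or settings named there, and the deposited values are log2 signals per probeset. Array maxima of 13.7 to 13.8 bear out the log scale. No detection call was used, so the number of arrays limits the precision.

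Of 247312 probesets, 277 with a placeholder cell were left out, and 218927 with 1 gene symbol were averaged into 18673 genes. Probesets with several symbols (9980) or none (18151) were not used. Of 18683 symbols, 2495 older ones were updated through RefSeq (assembly GRCh38.p14), which named CDC45, and 33 were not, because the array already used the current symbol; this keeps the C2orf48 probesets out of RRM2.

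TBBD was compared with DMSO by limma with the group as the only term, and replicate 2 with replicate 1 by limma with treatment as a second term. Tests were two-sided, across all genes, with Benjamini-Hochberg adjustment and a threshold of 0.05. Same-number differences and medians are descriptions. The members and lists were chosen with earlier results of these data known. All members were named, and of each other list the 2 genes with the largest difference between numbers, while markers were drawn from the 3 listed first and the 2 with the largest difference. Fits were checked on simulated data with independent errors and an effect of the tested term only. For the treatment fit these data held no difference between the numbers, unlike the arrays. Alternatives were renormalization, centring, filters, other summaries, priors and thresholds, the replicate block and leaving out each array. Merging older symbols was added after seeing the data. Software was R 4.3.3, limma 3.58.1, Python 3.11.15, numpy 2.4.6, pandas 2.3.3 and matplotlib 3.10.9.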

Additional observations from a re-analysis of the deposited data

How the results depend on the processing

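With TBBD, 0 of 29 members and 0 of all genes passed limma's adjusted threshold under every alternative run, the replicate block included. That fit takes the number as a second term. It gave an unadjusted p under 0.05 in limma for 496 of 18673 genes and 1 of 29 members, GINS2. Same-numbered arrays deviated together across genes (correlation 0.566), but the labels do not say that a number marks a shared culture. The members' median with TBBD ran from -0.257 without DMSO replicate 2 to 0.107 without DMSO replicate 1, which turned its direction, and those fits leave treatment and number unequal by construction. Between the numbers, 664 genes passed, 1003 with no treatment term, 1326 at a threshold of 0.1, and 369 (without TBBD replicate 2) to 670 (without DMSO replicate 2) with 1 array left out. Of the members 2 passed at a threshold of 0.1, CDC6 and RFC4, and 0 or 1 with 1 array left out, the 1 being CDC6 without TBBD replicate 1. Their median ran from -0.302 without TBBD replicate 1 to -0.0921 without DMSO replicate 1. The other alternatives gave medians from -0.0963 to -0.071 with TBBD and from -0.223 to -0.162 between the numbers. With the median over probesets 4 members changed sign for TBBD and 3 between the numbers. Same-number differences have no left-out-array alternative. Where 1 array is left out, the single remaining one is taken to vary as much as the arrays of the other group.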

Other observations

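RRM2 shows how older symbols bear on a value. RefSeq lists C2orf48 as a synonym of RRM2, and the array holds 6 probesets under that older symbol. These stood at 5.83, 5.50, 5.77 and 5.76 on DMSO 1, DMSO 2, TBBD 1 and TBBD 2, where the 95th percentile of the olfactory receptor genes was 5.66, so DMSO 2 alone lay below it. Averaged into RRM2 they gave 6.60, 6.19, 6.38 and 6.33 in place of 7.36, 6.88, 6.98 and 6.91, and moved the replicate 2 minus replicate 1 difference from -0.28 to -0.22 and TBBD minus DMSO from -0.18 to -0.039.

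Probesets of 1 gene did not always agree. GINS2 was lower on TBBD 1 than on DMSO 1 on 4 of 5 probesets and on TBBD 2 than on DMSO 2 on 3 of 5. CCNE1 was higher on replicate 2 on 8 of 10 probesets, whereas SLBP was lower there on 7 of 11. Over all members 300 of 406 probesets (73.9%) were lower on replicate 2, beside 50.8% of all probesets used.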
